A study of Drosophila melanogaster with 23 samples.

Results

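Of the 2169 protein-coding genes of the Drosophila melanogaster X chromosome in the count table, 520 were strongly expressed and lay away from the roX genes, and these 520 members are described here. A member had a mean of at least 50 CPM (the gene's read count scaled to a common library total) over the yw and histone control libraries. Its start lay more than 750 kb from the starts of roX1 (X:3857230) and roX2 (X:11579065) and short of the centromere end, in the positions of the BDGP6.54 annotation; the last member, DIP1, starts at X:21624796. The whole table held 17606 genes. The members were chosen by their levels in the 2 control groups, so those levels are given as a description only, and the control means that enter 5 of the 7 comparisons below were part of the choice. Set2, the H3.3 gene His3.3B and w, which the genotypes themselves change or mark, are among the 520.

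In Drosophila males the single X is transcribed at an increased rate by the MSL complex (male-specific lethal), which carries the roX1 or roX2 RNA and acetylates histone H4 at lysine 16 (H4K16) over the bodies of active X genes. The complex enters the chromosome at high-affinity sites, among them the roX genes, and spreads to active genes, whose transcribed bodies carry methylated lysine 36 of histone H3 (H3K36). Set2 is the enzyme that trimethylates H3K36, and the MSL3 subunit is known to bind that mark. Active X genes far from the roX genes are therefore the genes on which spreading and H4K16 acetylation are usually measured.

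Total RNA was sequenced from whole first-instar (L1) larvae, pooled male and female, of 6 genotypes kept at 25 °C, with 25 to 30 larvae collected per sample. The labels call the genotypes yw (3 libraries, a laboratory stock), Set21 (4 libraries, here the Set2 mutant), H3.3CtrlH3.2HWT (4, here the histone control), H3.3CtrlH4K16R (4, here H4K16R), H3.3K36RH3.2HWT (4, here H3.3K36R alone) and H3.3K36RH3.2K36R (4, here combined H3K36R). In these names K16R and K36R stand for lysine replaced by arginine, which cannot carry the lysine acetylation or lysine methylation described above. H3.2 is the histone deposited during replication and H3.3 the variant deposited outside it. The labels do not describe the alleles further, nor the share of male larvae in a pool, and only males have the MSL complex on the X, so every value below averages the sexes. Fewer cells of a type and less RNA per cell cannot be told apart in such pools. Nothing in the labels says that libraries came from separate cultures, so p-values measure the spread between these samples.

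Library totals ran from 111138070 to 157973821 counts, and all 520 members passed the filter on low counts. Replicate 3 of H4K16R stood apart from the other 3 libraries of its group on the main axis of spread within groups (score 97.9 against -32.1 to -20.0 in the others). Replicate 3 also scored highest in the histone control (42.3 against -32.0 to -7.27), in combined H3K36R (4.50 against -41.3 to -32.2) and in H3.3K36R alone (58.9 against -20.4 to 47.3), and Set2 libraries scored 68.8 to 85.7 against 2.10 to 8.28 in yw. Summed markers of tissues also moved with some groups. In combined H3K36R the 4 midgut markers, all called lower, summed to 519-808 CPM against 2834-4082 in the histone control. Fat body markers summed to 1770-3031 against 6835-8473 CPM, with apolpp and FASN1 lower and the other 2 of 4 below 1 CPM on average. Hemocyte markers summed to 1940-2980 against 5411-5523 CPM, with Col4a1 and vkg lower while Hml was higher (0.45 ± 0.10, adjusted p = 0.0012, edgeR). Neuronal markers summed to 1370-1557 against 1106-1306 CPM, where nSyb was the 1 of 5 called higher, and cuticle markers to 19.3-22.7 against 31.1-107 CPM, where Lcp3 was the 1 of 3 called lower. Of the 3 glial markers Eaat1 was called lower in combined H3K36R (-0.48 on the log2 scale). In the Set2 mutant the 5 neuronal markers summed to 436-882 CPM against 1192-1302 in yw. The 3 glial markers summed to 430-592 against 840-933 CPM, and every marker of both lists was called lower. In that mutant 2 of the 4 midgut markers were called lower too, thetaTry (-0.88) and epsilonTry (-0.57), as was the hemocyte marker Hml (-0.69). Its fat body sum was 6477-9030 against 9074-12095 CPM, with FASN1 lower (5604 to 2066 CPM on average) and apolpp not called (5011 to 5503 CPM). Its cuticle sum was 142-1883 against 17.6-23.1 CPM, with Osi7 and Cpr65Eb higher and Lcp3 lower (16.4 to 0.641 CPM on average). In H4K16R and H3.3K36R alone 1 of these marker genes was called, Hml, which was higher in H3.3K36R alone (0.52 on the log2 scale). The part of tissue makeup in the results below was not tested. Comparisons of H4K16R, H3.3K36R alone and combined H3K36R with the histone control share the same 4 control libraries.

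The members held 11.7% of all counts in the histone control and 11.8% in yw. Their median level was 114 CPM, with quartiles of 74.2 and 205 CPM, and 19 members reached 1000 CPM. At the threshold, Ubc7 (50.07 CPM), CG18273 (50.3) and CG34026 (50.4) lay just inside, and inaE (49.9), Ggt-1 (49.5) and CG4653 (49.2) just outside. Members were long: the median exon length was 3914 bases, against 3315 in the 2689 autosomal protein-coding genes that met the same level rule and 1799 in the 1180 tested X genes of the same positions below 50 CPM. The median SD of log2 CPM within groups was 0.15 in members and also 0.15 in those autosomal genes. They lay on both strands in near equal number, 254 on the plus strand and 266 on the minus strand.

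Per kilobase of exon, the members of highest level over all 23 libraries were mostly subunits of the cytosolic ribosome. RpL36 (X:628338-629483) led with 2115 CPM per kb, followed by sta (X:1481797-1483413), a small-subunit ribosomal protein, with 2026 CPM per kb. The third was sesB (X:10780893-10786958), the mitochondrial ADP/ATP carrier, with 1888 CPM per kb. RpL35, RpS28b, RpS6, RpL17, RpL7A and RpS5a followed, from 1697 down to 1360 CPM per kb. Act5C (X:5900861-5905399), cytoplasmic actin, came after these with 1306 CPM per kb and had the highest level before division by length, 4059 CPM over the control libraries.

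In H4K16R larvae the members as a group lay lower against the autosomes than in any other genotype. For each library the mean log2 CPM of the 520 members minus that of the 2689 autosomal genes of the same level gave an index. The index was -0.043, -0.036, -0.036 and -0.060 in the histone control and -0.261, -0.231, -0.176 and -0.277 in H4K16R. All 4 H4K16R libraries lay below all 4 control libraries, and replicate 3 lay nearest to them. The difference was -0.19 ± 0.02 (SE) on the log2 scale, or -12.5%, and without replicate 3 it was -0.21. It was about as large for X genes below 50 CPM, set against autosomal protein-coding genes below 50 CPM (-0.19 ± 0.04). For the 74 strong X genes within 750 kb of roX1 or roX2, set against the same 2689 autosomal genes, it was -0.17 ± 0.04. The members' share of all counts was 10.7% ± 0.20 (SD, n = 4) in H4K16R against 11.7% ± 0.029 (n = 4) in the histone control.

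**Figure D1:**
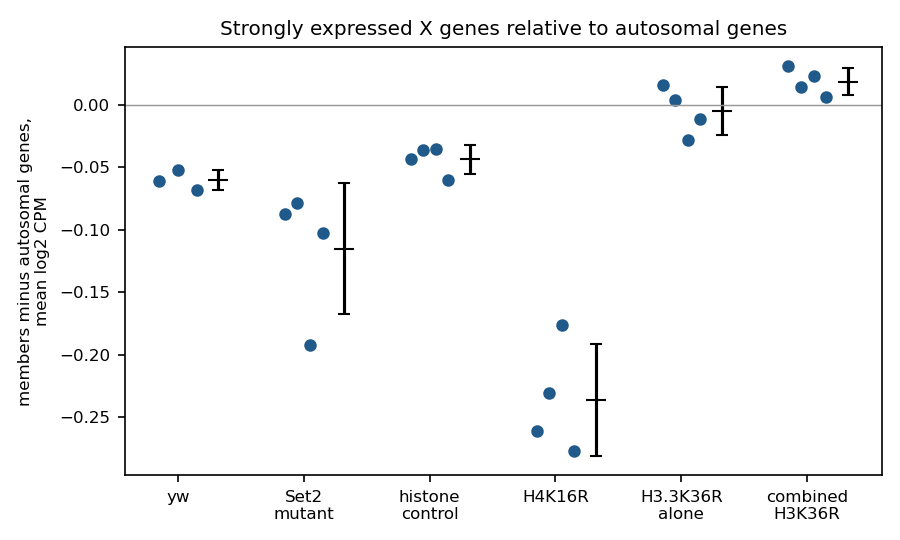
Mean log2 CPM of the 520 X members minus that of 2689 autosomal genes of the same level, per library (points), with the group mean and SD (bars) beside them. The H4K16R libraries lie from -0.277 to -0.176, below every library of the histone control, and one Set2 library lies at -0.192.

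Gene by gene, 35 members were lower in H4K16R than in the histone control and 1 was higher at an adjusted p below 0.05 (edgeR's quasi-likelihood test over all 14365 genes tested). Over all genes tested 1.03% were called lower and 0.278% higher, against 6.73% of members called lower. Among the autosomal genes of the same level 6 of 2689 were called lower and 5 higher. The median member changed by -0.14 on the log2 scale (quartiles -0.23 and -0.04), the median autosomal gene of that level by 0.08, and 422 of 520 members (81.2%) had a fold change below 0 against 29.3% of those autosomal genes. In 126 members every H4K16R library lay below every control library, and in 8 every one lay above. Among the autosomal genes these counts were 54 and 215. Without replicate 3 the medians were -0.21 in members and 0.04 in the autosomal genes, 86.9% and 35.8% had a fold change below 0, and 34 of the 35 falls were called again. With that library out, 238 of the 520 members lay wholly below and 25 wholly above the control, as did 122 and 519 of the 2689 autosomal genes. Here 3 libraries overlap with 4 less easily than 4 do. The single genes sit close to the limit of the test: fitted to these 2 groups alone none of the 35 passed (lowest adjusted p = 0.0587; 186 members lower and 10 higher at an unadjusted p below 0.05), while DESeq2 called 82 lower. Leaving out H4K16R replicate 1 gave 10 lower, without replicate 4 there were 18 and without replicate 3 there were 93, and without histone control replicate 1 or 4 there were 14 and 15. The estimate of spread is shared by all 23 libraries, and leaving out a library of another genotype also moved the count: 22 without yw replicate 3, 54 without yw replicate 2, 58 and 65 without Set2 replicates 1 and 3, 55 without combined H3K36R replicate 3 or 4, and 54 to 60 without any library of H3.3K36R alone.

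**Figure D2:**
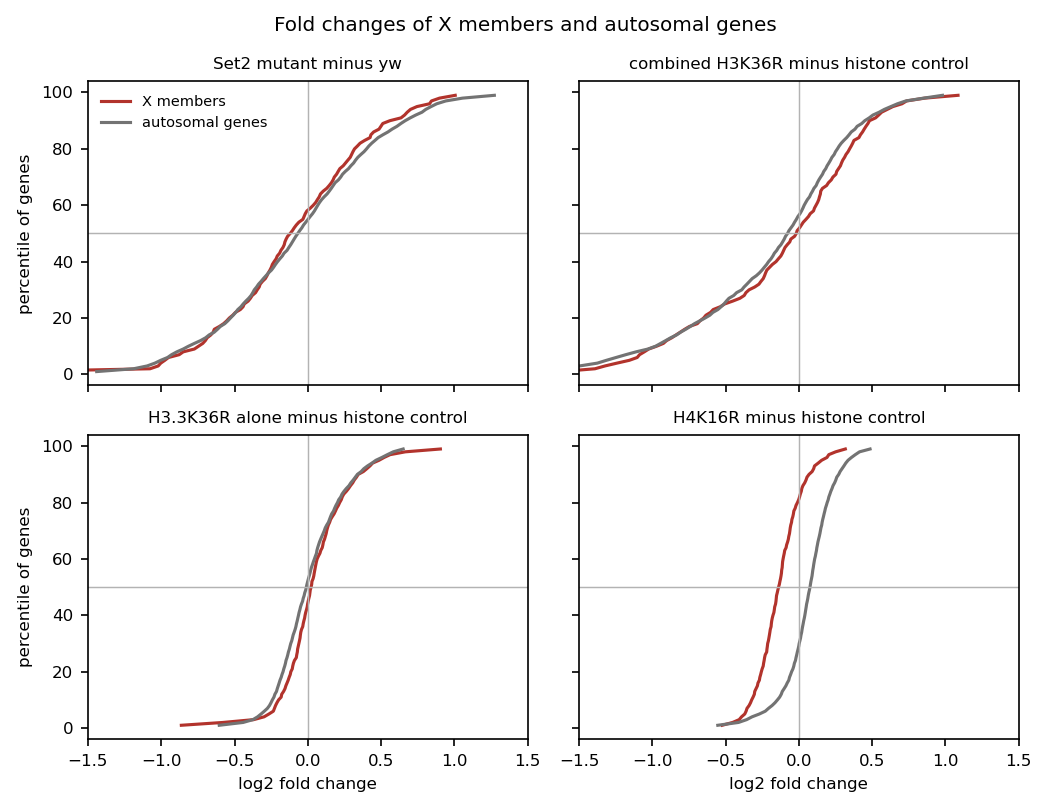
Percentiles (y axis) of the log2 fold change (x axis) over the 520 X members and the 2689 autosomal genes of the same level in 4 comparisons. In H4K16R the curve of the members lies to the left of that of the autosomal genes along most of its length, with medians of -0.14 and 0.08, and in the other panels the 2 curves run close together.

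The largest fall among members called in H4K16R was in Coq8 (X:12898768-12901114), a kinase-like protein needed for coenzyme Q synthesis. Its level was 52.6, 55.9, 58.4 and 53.7 CPM in the histone control and 32.4, 33.3, 43.8 and 32.2 CPM in H4K16R. The groups did not overlap, and replicate 3 was the highest of the H4K16R libraries (log2 fold change -0.64 ± 0.11 SE, adjusted p = 0.0059, edgeR; -0.79 without replicate 3). The members Cht6 and Ag5r, had lower values (-0.77 and -0.76) that did not pass. Cdc50 (X:16438680-16441296), a partner of lipid flippases, was at 88.7, 93.9, 85.3 and 89.8 CPM against 60.4, 63.2, 61.2 and 68.9 CPM in H4K16R. All 4 libraries were low to a similar degree (-0.50 ± 0.09, adjusted p = 0.0099, edgeR).

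AMPKalpha (X:1375536-1378896), the catalytic subunit of the energy-sensing AMP-activated kinase, was at 132, 117, 122 and 115 CPM in the histone control and 86.8, 89.1, 85.2 and 92.6 CPM in H4K16R. Vps4 (X:17907692-17911097), the ATPase that takes ESCRT-III filaments apart, was at 69.9, 62.6, 65.2 and 65.0 CPM against 48.7, 52.5, 48.3 and 46.9 CPM. In both genes the 4 H4K16R libraries agreed closely and none reached the control range (AMPKalpha -0.46 ± 0.10, adjusted p = 0.019, and Vps4 -0.42 ± 0.07, adjusted p = 0.0070, edgeR). Tak1, a kinase of the Imd immune pathway, fell by 0.40 on the log2 scale, and dome, the JAK/STAT receptor, fell by 0.39. The protease Fur2 fell by 0.39, and exd, a cofactor of Hox proteins, fell by 0.31. These 4 were picked after their values were seen.

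The actomyosin, muscle and cytoskeleton list had 10 members, of which 2 fell and none rose in H4K16R, where 6.73% of all members and 1.03% of all genes were called lower. These were Vinc (X:2214347-2222567), the adhesion protein vinculin, at 192, 147, 168 and 176 CPM in the control and 115, 127, 141 and 132 CPM in H4K16R, and mys. The integrin beta subunit mys (X:8061645-8070237) was at 324, 300, 318 and 334 CPM against 251, 261, 257 and 252 CPM (-0.32 ± 0.08, adjusted p = 0.038, edgeR). Neither gene's groups overlapped, and Vinc differed by -0.41 ± 0.10 (adjusted p = 0.040). The adhesion adapter parvin (X:19746041-19748458) was at 66.6, 54.5, 56.0 and 56.3 CPM in the control and 42.7, 44.1, 43.5 and 42.6 CPM in H4K16R (-0.43 ± 0.07, adjusted p = 0.0045). Armadillo, the fly beta-catenin (arm, X:1891401-1900646), lay at 296, 289, 300 and 288 CPM against 219, 248, 258 and 232 CPM (-0.29 ± 0.07, adjusted p = 0.027), again with no overlap. Act5C was not among these falls, with a fold change of 0.17 ± 0.09. The named falls from Cdc50 to arm and those of Tak1, dome, Fur2 and exd were all called without replicate 3 too, with values from -0.36 for mys to -0.52 for Cdc50.

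The medians of the function lists of members in H4K16R ran from -0.32 (cuticle, 4 members) to 0.07 (redox). The 12 respiratory chain members had a median of -0.18, against 0.07 in the 48 autosomal respiratory genes of the same level. In the 15 members of the cytosolic ribosome the median was -0.04, against 0.16 in 67 autosomal ribosomal protein genes. The neuronal list (11 members) had a median of -0.10, vesicle traffic (10 members) -0.15, transcription and chromatin (12 members) -0.10, and carbohydrate metabolism (8 members) -0.18. The 6 redox members had a median of 0.07. Over all function lists, which hold 112 of the members, the calls in H4K16R were Vinc, mys and arm lower and w higher, and the other 32 falls were among the 408 members in no list, whose median was -0.15. Without replicate 3 the median was -0.31 in respiratory chain members and -0.03 in the autosomal respiratory genes, -0.09 and 0.09 in the cytosolic ribosome, -0.05 in the neuronal list, -0.27 in vesicle traffic, -0.24 in transcription and chromatin, -0.24 in carbohydrate metabolism, -0.04 in the redox members and -0.78 in the cuticle members. None of these list medians was tested.

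The median of members in H4K16R was below 0 in every bin of length, level and position examined. By quartile of exon length the median of members was -0.08, -0.15, -0.18 and -0.15 from shortest to longest, against 0.13, 0.08, 0.06 and 0.02 in autosomal genes of the same lengths. Across quartiles of level it was -0.15, -0.15, -0.15 and -0.10 from lowest to highest. Members 750 to 1500 kb from the nearer roX gene (61 genes) had a median of -0.10, and those more than 6000 kb away (108 genes) had -0.15. The bins between, with 128, 140 and 83 members, gave -0.14, -0.12 and -0.16. Without replicate 3 the medians by length were -0.24, -0.27, -0.22 and -0.13 in members and 0.04, 0.03, 0.05 and 0.04 in autosomal genes, those by level ran from -0.28 in the lowest quartile to -0.17 in the highest, and those by distance lay between -0.28 and -0.16.

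The direct comparison of combined H3K36R with H4K16R uses none of the libraries that chose the members. Here 207 members were higher and 144 lower in combined H3K36R, or 39.8% and 27.7%, where 18.3% and 26.8% of all genes tested were called higher and lower. Autosomal genes of the same level went the other way on balance, with 545 of 2689 higher and 1147 lower. The index was 0.031, 0.015, 0.023 and 0.006 in the 4 combined H3K36R libraries, all above all H4K16R libraries, and the difference was 0.25 ± 0.02 (SE). Without H4K16R replicate 3 it was 0.27, with 218 members higher and 114 lower. GstT4, Cyp18a1, Hk, RhoGAP18B and Paics were among the largest named rises, with log2 fold changes of 1.58 for GstT4 down to 1.24 for Paics. Vps4 (0.65 ± 0.07), AMPKalpha (0.54 ± 0.10), arm (0.37 ± 0.07) and mys (0.33 ± 0.08) were also higher in combined H3K36R than in H4K16R. These 4 genes were named above for their falls in H4K16R. The same H4K16R libraries enter both comparisons, so these rises are given without a test. By contrast Coq8 was lower still in combined H3K36R (-0.45 ± 0.11, adjusted p = 0.0017, edgeR), by -0.29 without H4K16R replicate 3 (adjusted p = 0.018, edgeR).

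In the Set2 mutant the members changed strongly in both directions, and the index shifted by much less than in H4K16R. Set2 itself is a member (X:13413242-13421024), and the check of the genotype came out as labelled, with 79.3, 70.4 and 82.4 CPM in yw and 4.97, 6.20, 7.69 and 7.19 CPM in the mutant (-3.57 ± 0.11, adjusted p = 1.3e-15, edgeR). In all, 116 members were higher and 192 lower, or 22.3% and 36.9%, where 23.4% of all genes tested were called higher and 21.1% lower. Among autosomal genes of the same level the shares were close to those of the members, 26.4% higher and 35.6% lower. The median fold change was -0.12 in members and -0.07 in those autosomal genes. The index was -0.061, -0.052 and -0.068 in yw and -0.087, -0.079, -0.192 and -0.103 in the mutant, a difference of -0.05 ± 0.03 (SE), which fell to -0.03 without Set2 replicate 3. After removal of the trend of fold change with exon length over all genes, 170 members were higher and 111 lower. With the axis of spread as a covariate 23 were higher and 103 lower, and without yw replicate 4 there were 71 and 148.

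The largest named fall after Set2 itself was in Pdcd4 (X:13745577-13755406), a repressor of translation. It was at 454, 560 and 547 CPM in yw and 84.1, 93.6, 104 and 149 CPM in the mutant (-2.27 ± 0.18, adjusted p = 7.6e-09, edgeR). CG14419 and CG3588, near 0 in most libraries of both stocks, had larger fitted falls. For Pdcd4 all 4 mutant libraries lay far below yw. Abca3 (X:21292308-21306665), an ABC transporter, was at 147, 143 and 154 CPM against 54.2, 49.2, 62.8 and 62.2 CPM. The mutant libraries were uniformly low (-1.38 ± 0.10, adjusted p = 2.2e-09). Ag5r, a secreted protein of the antigen-5 family, was lower by -1.44 ± 0.24, with 34.3 to 66.6 CPM in yw and 11.8 to 25.4 CPM in the mutant.

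Of the 11 neuronal members 6 were lower in the Set2 mutant and none higher, with a list median of -0.78, where 36.9% of all members and 21.1% of all genes were called lower. They included the membrane protein Appl (-1.03 ± 0.31), related to the amyloid precursor, and the endocytic dynamin shi (-0.44 ± 0.09). The RNA-binding neuronal marker elav was lower by -0.56 ± 0.16. Outside the list, the memory gene rsh (X:12988615-13079070) was at 131, 119 and 129 CPM in yw and 62.1, 72.0, 34.8 and 70.2 CPM in the mutant, and the phosphatidylinositol transfer protein rdgB of photoreceptors (X:13762752-13779488) was at 130, 125 and 140 against 68.8, 66.5, 43.6 and 70.9 CPM. In both, replicate 3 of the mutant was lowest and no library reached yw. In growth and signalling, against the same shares, 5 of 9 members fell, among them csw, a tyrosine phosphatase of receptor signalling (-0.72 ± 0.14), and none rose; w, nearly absent in both stocks, is one of the 5. All 5 neuronal and all 3 glial markers of the tissue lists were lower as well, elav being in both lists, and their part in these falls was not tested.

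The largest named rises in the Set2 mutant, after bnb (1.18 ± 0.27), included Sec61gamma, Cyp1 and Ost48. Sec61gamma (X:19643327-19644518), a subunit of the channel through which proteins enter the endoplasmic reticulum, was at 110, 114 and 104 CPM in yw and 256, 213, 255 and 220 CPM in the mutant. Ost48 (X:9156929-9158515), a subunit of the enzyme that attaches N-linked sugars, was at 93.8, 101 and 91.1 against 198, 164, 221 and 181 CPM. In both the mutant and yw libraries did not overlap (1.11 ± 0.30, adjusted p = 0.0055, and 1.01 ± 0.31, adjusted p = 0.014, edgeR). Both genes were also high in H4K16R replicate 3, which stood apart on the axis of spread. Sec61gamma was at 153 CPM there against 75.2 to 82.5 CPM in the rest of that group, and Ost48 at 132 against 55.2 to 63.8 CPM. With that axis as a covariate far fewer members were called higher in the Set2 mutant, as given above. Cyp1 (X:16317673-16320370), a cyclophilin, rose from 500, 499 and 416 CPM to 1044, 1018, 997 and 905 CPM (1.07 ± 0.23, adjusted p = 0.00090). Against 22.3% of all members and 23.4% of all genes called higher, 3 of 4 members rose in the folding list, Cyp1 and the chaperonin subunits CCT2 (1.00 ± 0.24) and CCT6 (0.84 ± 0.23), and the ubiquitin gene Ubi-p5E fell (-0.51 ± 0.16). The mitochondrial import protein ttm50 rose by 0.95 ± 0.19.

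Of the 12 respiratory chain members 11 rose in the Set2 mutant, with a list median of 0.35, where 22.3% of all members and 23.4% of all genes were called higher. Examples are the ATP synthase subunit ATPsyndelta (0.51 ± 0.12) and the complex I subunit ND-B14.5A (0.46 ± 0.11), and ND-18 did not pass (0.20 ± 0.11). The 48 autosomal respiratory genes had a median of 0.38, with 41 higher and none lower. In the cytosolic ribosome 4 of 15 members rose, sta, RpL37-1, RpS19a and RpS5a, by 0.22 to 0.38, a share near those 2, and the median of 0.17 was the same as in 67 autosomal ribosomal protein genes. Carbohydrate metabolism was split, with 5 of 8 lower and 2 higher, where 36.9% of all members were called lower. Its falls included the pentose phosphate enzymes Zw (-0.85 ± 0.24) and Pgd (-0.65 ± 0.22), and its rises the citric acid cycle enzyme Fum1 (0.50 ± 0.14).

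**Figure D3:**
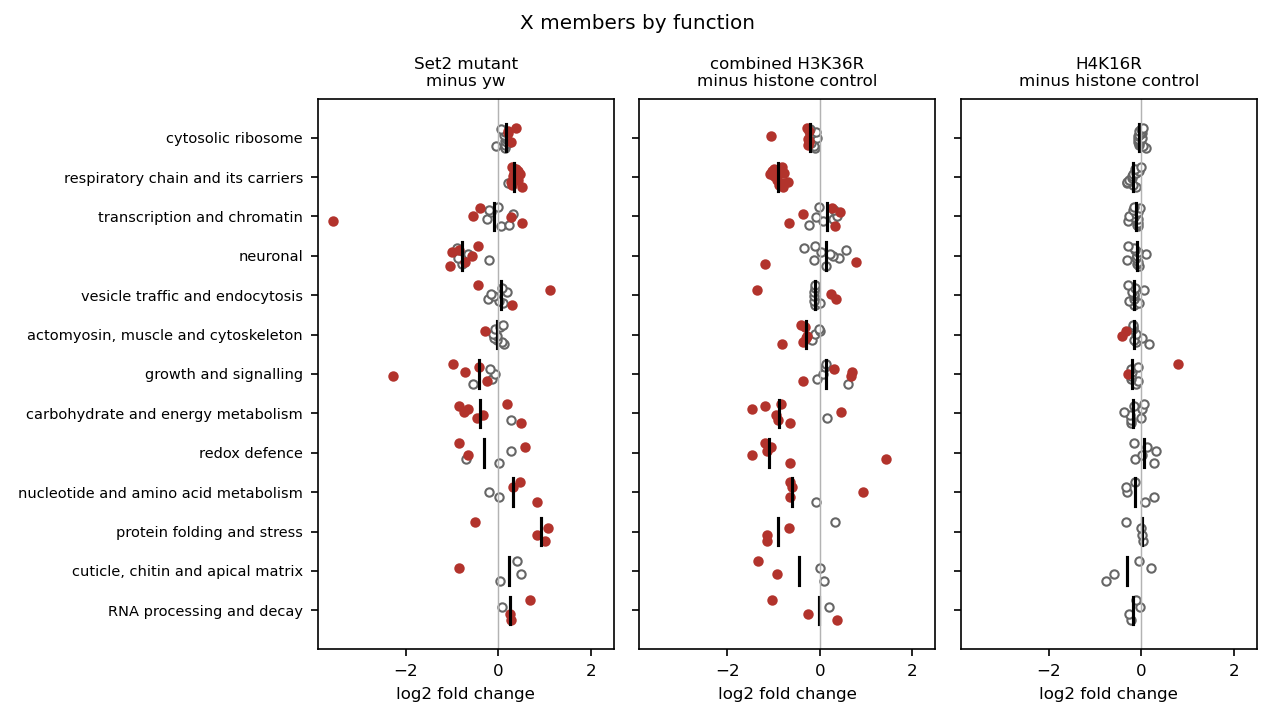
Log2 fold change (x axis) of each member in the 13 function lists with at least 4 members, for 3 comparisons. Filled points passed an adjusted p below 0.05, open points did not, and the vertical bar is the list's median. Respiratory chain members lie to the right in the Set2 mutant and to the left in combined H3K36R, and in H4K16R most points are open and near 0, with w at 0.79 to the right and the open points of Cht6 (-0.77) and Cpr11A (-0.59) to the left.

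In combined H3K36R, where both H3.2 and H3.3 carry the replacement, 132 members were higher and 173 lower than in the histone control. These are 25.4% and 33.3% of members, where 16.4% of all genes tested were called higher and 22.8% lower. Autosomal genes of the same level had 20.7% higher and 35.4% lower. The median was -0.02 in members and -0.08 in the autosomal genes, and the index differed by 0.06 ± 0.01 (SE), from -0.060 to -0.036 in the control and from 0.006 to 0.031 in combined H3K36R. All 4 combined libraries lay above all 4 control libraries and the sign of the shift was opposite to that in H4K16R. It was 0.03 when medians replaced means and 0.09 at a level rule of 100 CPM. The shift was larger in X genes below 50 CPM, set against autosomal genes below 50 CPM (0.11 ± 0.01 SE, with no overlap). In the 74 strong X genes within 750 kb of roX1 or roX2 it was 0.03 ± 0.01, and the groups overlapped.

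Members of energy metabolism fell in combined H3K36R. All 12 respiratory chain members were lower, from -0.68 for ND-20 to -1.07 for ND-B14.5A, with a median of -0.90, and all 48 autosomal respiratory genes of the same level were lower too (median -0.88). The carrier sesB was at 3643, 3736, 4088 and 3862 CPM in the control and 2062, 1946, 2462 and 2251 CPM in combined H3K36R (-0.81 ± 0.08, adjusted p = 1.4e-07, edgeR). In carbohydrate metabolism, where 33.3% of all members and 22.8% of all genes were called lower, 6 of 8 members fell and 1, Pfrx, an enzyme that sets fructose 2,6-bisphosphate, rose (0.46 ± 0.11). Pgd (X:2145136-2148566), which makes NADPH in the pentose phosphate pathway, was at 135, 158, 144 and 99.7 CPM against 43.4, 35.5, 61.0 and 55.4 CPM (-1.46 ± 0.21, adjusted p = 1.1e-05). Zw, the enzyme before it, fell by -1.19 ± 0.22, the citrate synthase kdn by -0.84 ± 0.07 and Gapdh2 of glycolysis by -0.89 ± 0.12.

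Redox defence followed the same direction with 1 exception. Of 6 members 5 fell, against 33.3% of all members, Pgd and Zw being shared with the list above. The peroxiredoxin Prx2 (X:13329824-13331994) was at 187, 210, 195 and 180 CPM in the control and 75.1, 71.1, 120 and 86.6 CPM in combined H3K36R (-1.13 ± 0.15). Trxr1, the thioredoxin reductase, fell by -1.05 ± 0.11. The glutathione S-transferase GstT4 (X:13404749-13409323) was instead the largest named rise, at 63.7, 48.1, 39.3 and 46.2 CPM in the control and 156, 134, 129 and 116 CPM in combined H3K36R (1.44 ± 0.27, adjusted p = 0.00023, edgeR). The summed midgut, fat body and hemocyte markers were lower in the same libraries, with the exceptions given above.

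The largest named fall in combined H3K36R was in a gene of ribosome production. This was l(1)G0020 (X:8716713-8720277), the fly relative of the RNA acetyltransferase NAT10 that modifies ribosomal RNA, at 47.1, 49.9, 70.0 and 57.8 CPM in the control and 11.2, 11.7, 24.9 and 14.6 CPM in combined H3K36R (-1.85 ± 0.28, adjusted p = 3.4e-05, edgeR). Mybbp1A (X:629773-633633), a nucleolar protein, was at 43.3, 46.2, 64.3 and 51.9 CPM against 13.6, 13.9, 26.5 and 16.7 CPM (-1.54 ± 0.26). Replicate 3 of combined H3K36R was the highest of its group for both genes and still below the control. The mitochondrial ribosomal proteins mRpS30 and mRpL22, the only members on that list, fell by -1.42 ± 0.19 and -0.84 ± 0.15. In the cytosolic ribosome 7 of 15 fell, against 33.3% of all members and 35.4% of autosomal genes of the same level, 6 of them with fold changes of -0.27 to -0.22, and the list had a median of -0.22 against -0.11 in the 67 autosomal genes. RpS14b fell most (-1.06 ± 0.09) and its near-identical neighbour RpS14a did not pass (-0.06 ± 0.08), a pair whose reads may be split uncertainly. The membrane detoxification enzyme Mgstl fell by -1.65 ± 0.17.

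Of the 10 cytoskeletal members 6 fell and none rose, where 33.3% of all members and 22.8% of all genes were called lower; the list median was -0.29. Act5C was at 3286, 3900, 4014 and 3572 CPM in the control and 1906, 1879, 2352 and 2318 CPM in combined H3K36R (-0.81 ± 0.09, adjusted p = 3.2e-07, edgeR), with no overlap. The muscle troponin genes wupA (troponin I) and up (troponin T) fell by -0.41 ± 0.11 and -0.31 ± 0.12, while 4 of the 5 muscle markers, which include both, were lower too. In folding, CCT2 (-1.14 ± 0.22), CCT6 (-1.13 ± 0.21) and Cyp1 (-0.66 ± 0.21) fell.

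Other large named rises in combined H3K36R besides GstT4 had varied functions. The potassium channel beta subunit Hk (X:10233347-10263485) was at 70.7, 71.6, 60.7 and 72.1 CPM in the control and 167, 170, 150 and 146 CPM in combined H3K36R (1.20 ± 0.23, adjusted p = 0.00031, edgeR). All combined H3K36R libraries lay well above the highest control library, and the neuronal marker sum was higher in the same libraries, as given above. RhoGAP18B, a GTPase-activating protein, rose by 1.14 ± 0.12, AMPdeam, the AMP deaminase, by 1.05 ± 0.09, and Cyp18a1, the cytochrome P450 that inactivates ecdysone, by 1.10 ± 0.25. In nucleotide and amino acid metabolism Paics of purine synthesis rose (0.93 ± 0.09), while ras, the IMP dehydrogenase, r, the first enzyme of pyrimidine synthesis, and Gclc of glutathione synthesis fell by -0.63 ± 0.12, -0.59 ± 0.11 and -0.64 ± 0.12. The H3.3 gene His3.3B, itself a member and changed by the genotype, was higher by 0.32 ± 0.06.

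**Figure D4:**
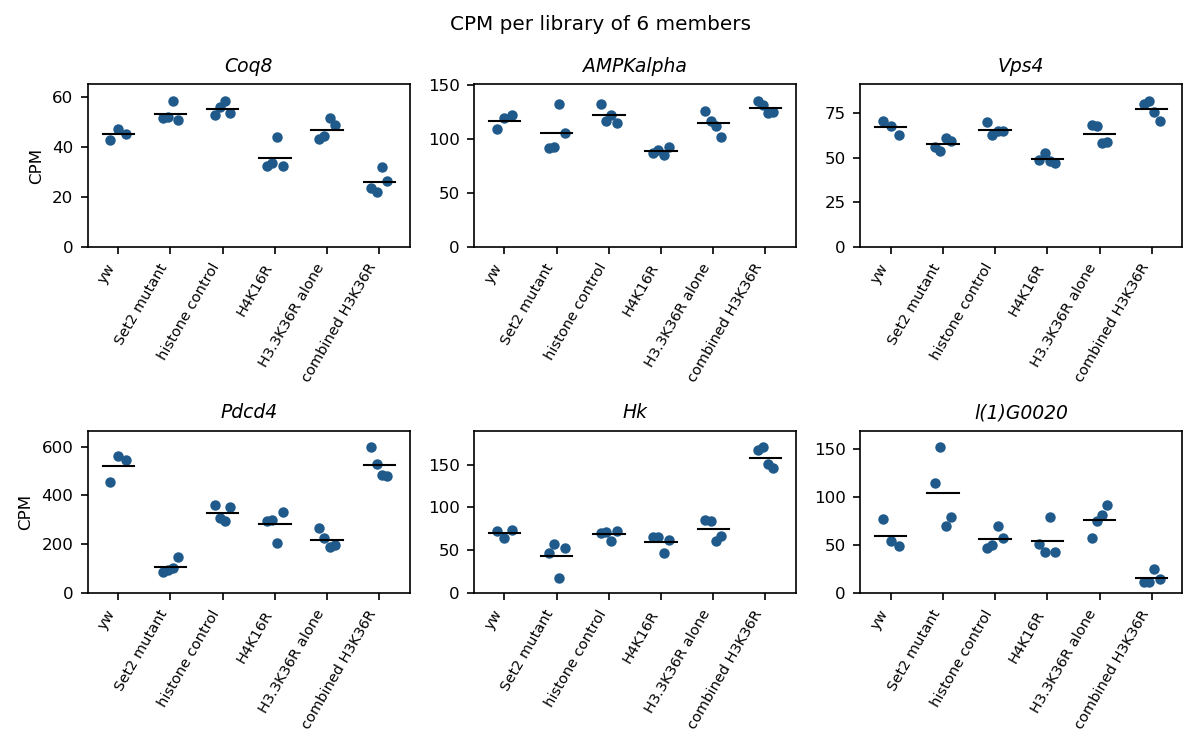
CPM per library (points) and group means (bars) of 6 members in the 6 genotypes. Coq8, AMPKalpha and Vps4 are lower in H4K16R than in the histone control, Pdcd4 is at 84.1 to 149 CPM in the Set2 mutant, and Hk and l(1)G0020 move apart in combined H3K36R.

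The Set2 mutant and combined H3K36R, whose comparisons share no library, mostly moved the same members in opposite directions. Called in both were 206 members, 66.9% of those called in the Set2 mutant and 67.5% of those called in combined H3K36R. These shares were 56.9% and 62.8% in autosomal genes of the same level and 49.1% and 55.7% over all genes. Of these, 99 were lower in the Set2 mutant and higher in combined H3K36R, 88 were higher and then lower, 18 were lower in both and 1 was higher in both. The opposite share was 90.8% in members, 81.8% in autosomal genes of the same level and 80.3% over all genes called in both. Across the 520 members the 2 sets of log2 fold changes had a Pearson r of -0.44, across genes that are not independent replicates, and across the 2689 autosomal genes of -0.37. The test of the difference of the 2 effects (Set2 effect minus combined H3K36R effect) called 170 members higher and 205 lower, or 32.7% and 39.4%, where 27.9% and 23.6% of all genes tested were called. Pdcd4 (-2.94 ± 0.24) and GstT4 (-2.12 ± 0.39) were examples on one side and l(1)G0020 (2.64 ± 0.42) and Sec61gamma (2.46 ± 0.41) on the other. All 12 respiratory chain members differed between the effects. Zw and Pgd fell in both genotypes.

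Exon length ordered both effects in members much as in autosomal genes. From the shortest to the longest quartile of members, the median fold change in the Set2 mutant was 0.21, 0.07, -0.22 and -0.44, and in combined H3K36R it was -0.63, -0.13, 0.15 and 0.26. In autosomal genes of the same lengths the medians were 0.21, 0.02, -0.19 and -0.40, and -0.48, -0.16, 0.09 and 0.16. The longest quartile held 3 rises and 82 falls among 130 members in the Set2 mutant, and 53 rises and 5 falls in combined H3K36R. Over all genes tested, of any length, 23.4% rose and 21.1% fell with the Set2 mutation. With combined H3K36R these shares were 16.4% and 22.8%. Calls among autosomal genes of the longest quartile are not given here, but their medians had the same signs as those of the members. The quartile bounds were 2098, 3914 and 6726 bases.

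**Figure D5:**
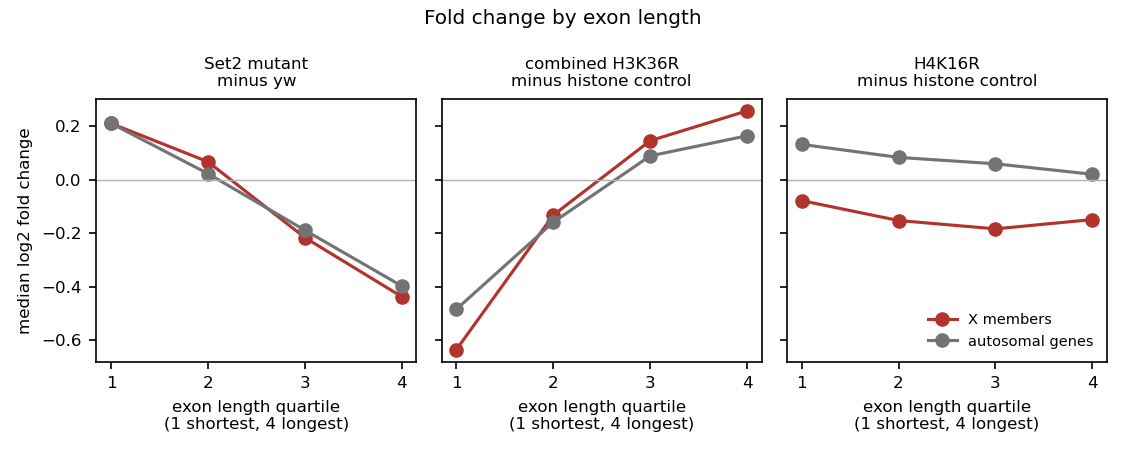
Median log2 fold change by quartile of exon length (1 shortest, 4 longest; bounds at 2098, 3914 and 6726 bases) in X members and autosomal genes of the same level. The 2 lines run together in the Set2 mutant and in combined H3K36R, with opposite slopes, and are offset from each other in H4K16R.

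Few members were called in H3.3K36R alone. Compared with the histone control 6 were higher and 10 lower, or 1.15% and 1.92%, where 0.947% and 1.02% of all genes tested were called. The median was 0.02 and the index differed by 0.04 ± 0.01 (SE), from 0.016, 0.004, -0.028 and -0.011 in H3.3K36R alone, with no overlap with the control. The difference was 0.01 when medians replaced means and also 0.01 at a level rule of 100 CPM. In the 74 strong X genes within 750 kb of roX1 or roX2 it was 0.07 ± 0.02 (SE), with no overlap. In X genes below 50 CPM, set against autosomal genes below 50 CPM, it was 0.01 ± 0.01, and the groups overlapped. DESeq2 called 13 higher and 15 lower. Without H4K16R replicate 3, which is in neither group but shares the estimate of spread, 19 were higher and 18 lower. Without replicate 4 of H3.3K36R alone 5 were lower, without its replicate 3 there were 6, and without histone control replicate 1 there were also 6.

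RpS14b (X:7934898-7935792), a small-subunit ribosomal protein gene, was at 294, 304, 288 and 262 CPM in the histone control and 148, 144, 161 and 142 CPM in H3.3K36R alone (-0.95 ± 0.09, adjusted p = 2.3e-07, edgeR). It was also at 130, 144, 137 and 140 CPM in combined H3K36R, at 301, 264, 277 and 256 CPM in H4K16R and at 171 to 246 CPM in yw and the Set2 mutant. The adjacent RpS14a (X:7933742-7934677) was at 935 to 1068 CPM in the control and 1047 to 1151 CPM in H3.3K36R alone (0.17 ± 0.08). The steroid dehydrogenase gene spidey (X:7908931-7911885) was the one named rise, from 57.3, 67.9, 67.3 and 58.1 to 89.9, 83.3, 90.5 and 98.0 CPM (0.53 ± 0.10, adjusted p = 0.0064). In yw spidey was at 83.2, 75.1 and 77.4 CPM, above the histone control and reaching to just below the lowest library of H3.3K36R alone. Mgstl (-0.81 ± 0.16), Ag5r (-1.04 ± 0.22), Ubi-p5E (-0.57 ± 0.15) and the sarcoplasmic calcium-binding protein CBP (-0.52 ± 0.13) were lower than in the histone control. Ag5r was at 34.3 to 66.6 CPM in yw, a range that covers the 40.3 to 59.7 CPM of H3.3K36R alone. CBP was at 142 to 152 CPM in yw and 156 to 210 CPM in H3.3K36R alone. Mgstl (71.0 to 89.7 against 99.7 to 103 CPM) and Ubi-p5E (71.6 to 109 against 146 to 177 CPM) were below yw as well.

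The members with the largest changes in H3.3K36R alone carry only CG numbers and were picked after their values were seen. CG2233 (X:8035741-8037517) was at 388, 457, 456 and 431 CPM in the control, 175, 162, 150 and 115 CPM in H3.3K36R alone and 74.7, 65.5, 94.9 and 86.8 CPM in combined H3K36R. Its 3 ranges did not overlap. CG10918 (X:21428614-21429256) was at 55.3, 69.1, 83.5 and 76.1 CPM in the control, 31.9, 31.2, 20.4 and 18.8 CPM in H3.3K36R alone, and 247, 259, 209 and 233 CPM in combined H3K36R. It was at 31.0, 24.7 and 24.9 CPM in yw, near its level in H3.3K36R alone, and reached the level rule through the histone control, so the fall against that control is given without a test. Against it the fold change was -1.47 ± 0.20 with H3.3K36R alone, and 1.74 ± 0.20 with combined H3K36R. CG12057 (X:9191657-9192548) was higher by 1.77 ± 0.33 in H3.3K36R alone, with 126 to 222 CPM against 31.5 to 69.0 CPM in the control, but yw libraries were at 130, 236 and 219 CPM.

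Adding H3.2K36R to H3.3K36R, a comparison that uses no library of the member rule, gave 154 members higher and 204 lower in combined H3K36R, where 19.7% and 28% of all genes tested were called higher and lower. The shares in members were 29.6% and 39.2%, and in autosomal genes of the same level 27.4% and 40.0%. The index differed by 0.02 ± 0.01 (SE) and the groups overlapped, but at a level rule of 100 CPM the difference was 0.08 and at 25 CPM it was 0.04. Again all 12 respiratory chain members were lower (median -1.07), as were 9 of 15 ribosomal and 7 of 10 cytoskeletal members. GstT4 was at 43.2, 30.5, 21.3 and 22.5 CPM in H3.3K36R alone and 156, 134, 129 and 116 CPM in combined H3K36R (2.18 ± 0.27, adjusted p = 1.9e-06, edgeR), and Pdcd4 rose by 1.25 ± 0.16. The largest named falls were l(1)G0020 (-2.29 ± 0.29), Mybbp1A (-2.01 ± 0.27), Sec61gamma (-1.97 ± 0.28), obst-A of the chitin matrix (-1.95 ± 0.31), Ost48 (-1.89 ± 0.29) and the chaperone Grp170 of the endoplasmic reticulum (-1.87 ± 0.25). RpS14b did not pass (-0.11 ± 0.08).

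Of the RNAs and proteins of the MSL complex, none of which is a member, some were called and others were not. The roX1 level averaged 1317 ± 187 CPM (SD, n = 4) in histone control libraries. It averaged 1157 ± 268 CPM with H4K16R, 1678 ± 217 CPM with combined H3K36R and 773 ± 91.5 CPM for H3.3K36R alone (n = 4 each). Levels were 930 ± 107 CPM (n = 3) for yw and 693 ± 79.0 CPM (n = 4) for the Set2 mutant. Against its control roX1 was lower in H3.3K36R alone (-0.77 ± 0.15, adjusted p = 0.0057) and in the Set2 mutant (-0.42 ± 0.16, adjusted p = 0.035) by edgeR. In H4K16R, replicate 3 had the lowest roX1 (792 CPM) and the index nearest the control. The acetyltransferase gene mof fell in H4K16R (-0.41 ± 0.10, adjusted p = 0.044), at 18.2 CPM against 24.2 CPM on average. It was higher in the Set2 mutant (0.31 ± 0.11, adjusted p = 0.024). The msl-3 gene, of the subunit that binds methylated H3K36, was higher in combined H3K36R (0.41 ± 0.09, adjusted p = 0.00097) and lower in the Set2 mutant (-0.24 ± 0.10, adjusted p = 0.046). The second RNA, roX2, was lower in H3.3K36R alone (-0.85 ± 0.18, adjusted p = 0.010). For msl-1, msl-2 and the helicase gene mle no comparison with a control passed. Clamp, a gene examined with these, was higher in combined H3K36R (0.37 ± 0.06, adjusted p = 6.9e-05, edgeR). The part of these levels in the index was not tested.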

How the data were processed

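The deposited values were whole-number read counts per FlyBase gene, a table the authors made with STAR 2.7.2a and Subread 2.0.3 per the submitters' processing notes. For the counting, its genome build, annotation and strand setting were not stated, so overlapping genes are uncertain. Replicate 1 of yw was dropped by the submitters over a library construction error. Positions, names and exon lengths came from the BDGP6.54 annotation, matched by identifier for 17527 genes. Genes were filtered with filterByExpr in edgeR 4.0.16 (minimum count 10), which kept 14365 and removed 3241. Counts were scaled by TMM and fitted with 1 mean per group over all 23 libraries by edgeR's quasi-likelihood model in R 4.3.3 (17 residual degrees of freedom, common biological coefficient of variation 0.311), and p-values were adjusted by Benjamini-Hochberg over all genes tested. The fit was tested on simulated data. Printed CPM include the TMM factors, and log2 values for the index a prior count of 2. SE of an index difference comes from the spread over libraries.

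Named genes were the 6 largest rises and falls per comparison among called members with no overlap between groups and no CG number, list members, the 10 highest per kilobase and those at the threshold; others are marked where named, and 1 is not reported here. The members, the 17 function lists and the comparisons were chosen with earlier results of these data known. The level rule was also tried at 25 and 100 CPM, the distance at 1500 kb, other scalings, DESeq2 1.42.0, a length correction, a covariate for the axis of spread, and fits without each library.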

Additional observations from a re-analysis of the deposited data

Results flagged for a closer look

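Among the genes described above, 270 groups of 4 libraries were examined for a library far from the other 3 (Dixon's test at 95%), and 23 were found. Chance gives about 1 in 20 groups. The library is replicate 3 of its group in 18 of the 23.

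In H4K16R, replicate 3 stood above the other 3 for Sec61gamma (153 against 75.2-82.5 CPM), Ost48 (132 against 55.2-63.8), ttm50 (101 against 53.2-56.1), Mgstl (201 against 117-125), mRpS30 (106 against 59.1-62.4), CG14419 (213 against 78.8-92.4) and Coq8 (43.8 against 32.2-33.3). It stood below them for Hk (46.8 against 62.4-65.5), while replicate 4 was high for Ag5r (65.2 against 57.4-58.3). In the Set2 mutant, replicate 3 was high for Coq8 (58.4 against 50.9-51.8) and RpS14a (1150 against 912-934) and low for rdgB (43.6 against 66.5-70.9), Hk (17 against 46.5-56.9) and Frq1 (10.2 against 119-140). Replicate 4 had 0.191 CPM of CG14419 against 0-0.0208. In the histone control, replicate 3 was low for rsh (108 against 132-135), Hk (60.7 against 70.7-72.1) and Frq1 (148 against 191-199), and replicate 1 was high for parvin (66.6 against 54.5-56.3). In combined H3K36R, replicate 3 was low for rsh (124 against 143-147) and high for CG14419 (65.3 against 31.7-34.2), and replicate 4 was low for mys (306 against 325-327). In H3.3K36R alone, replicate 1 was high for Cdc50 (98.1 against 85.5-86.8).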

How the results depend on the processing

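Of 610 alternative values for the counts and index differences 551 stayed near the reported value, and of 2263 for named genes 2224 kept their call, 39 missed the threshold and none reversed. Counts below are members higher and lower. At a level rule of 100 CPM (298 members) they were 58 and 111 in the Set2 mutant, 68 and 98 in combined H3K36R, 2 higher in H3.3K36R alone, 0 and 16 in H4K16R, 88 and 117 for combined H3K36R against H3.3K36R alone, 106 and 81 against H4K16R, and 96 and 117 for the difference of effects. At 25 CPM (772 members) they were 197 higher in the Set2 mutant, 10 and 18 in H3.3K36R alone, 62 lower in H4K16R and 266 higher for the difference. The axis covariate gave 23 and 103 in the Set2 mutant and 88 lower in H4K16R, and removing the length trend 111 lower in the Set2 mutant. For H4K16R, autosomal TMM factors gave 70 lower, DESeq2 82, and edgeR on these 2 groups alone 0 and 0 (10 and 186 at an unadjusted p below 0.05). The single rise there, w, left 0 at 1500 kb, with the level taken from yw, and without Set2, His3.3B and w, the last 2 chosen after seeing the data. In H3.3K36R alone, 11 were higher with only its 2 groups and 13 with DESeq2. Index differences for combined H3K36R were 0.0328 with medians, 0.0901 at 100 CPM and 0.0496 at 1500 kb, for H3.3K36R alone 0.00861 with medians and 0.0105 at 100 CPM, and between these genotypes 0.0796 at 100 CPM. The causes were not tested.

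Leaving out 1 library gave, higher and lower, 71-135 and 148-197 (Set2 mutant), 102-165 and 152-182 (combined H3K36R), 5-19 and 5-18 (H3.3K36R alone), 1-1 and 10-93 (H4K16R), 136-187 and 176-218 (combined against H3.3K36R alone), 197-241 and 114-157 (combined against H4K16R), and 158-183 and 184-218 (difference of effects). Index differences ranged from -0.0670 to -0.0291, 0.0567 to 0.0664, 0.0319 to 0.0466, -0.213 to -0.179, 0.0156 to 0.0302 and 0.241 to 0.275 in the order of the first 6 comparisons.

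Same-numbered libraries were not treated as paired, since the labels name no shared source and not every pair deviated together. Deviations correlated over 0.1 in 13 of 24 same-numbered pairs of histone genotypes (-0.10 to 0.43) and in 10 of 72 others (-0.43 to 0.21). All 6 pairs of replicate 1 (0.13 to 0.33) and all 6 of replicate 3 (0.17 to 0.43) exceeded 0.1, none of replicate 2 did and 1 of replicate 4 did, and 10 of 16 libraries correlated best with one of their own number, a hint from the data and not the design. Between yw and Set2 the range was -0.0011 to 0.045. With the replicate block, counts were 132 and 204, 140 and 183, 27 and 13, 1 and 48, 164 and 210, 214 and 150, and 177 and 209 in that order; in H3.3K36R alone the block thus moved the rises from 6 to 27 and made them outnumber the falls.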

Other observations

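Neighbouring members near the white gene had very different levels in the 2 stocks yw and Set2 and in the 4 histone genotypes. White (w, X:2790599-2796466), the eye colour transporter often carried as a marker on transgenes, was at 0.934 to 1.29 CPM in yw, 0.374 to 0.711 CPM in the Set2 mutant, 119 to 164 CPM in the histone control and 208 to 305 CPM in H4K16R. It was the only member called higher in H4K16R (log2 fold change 0.79 ± 0.15 SE, adjusted p = 0.011, edgeR). CG3588 (X:2919770-2924426) was at 1.24, 17.9 and 0.956 CPM in yw and 0.237 to 0.513 CPM in the Set2 mutant, but at 195 to 574 CPM in all 16 histone libraries. CG14419 (X:2885186-2885914) was at 0.459, 9.62 and 0.703 CPM in yw, 0 to 0.191 CPM in the Set2 mutant and 31.7 to 213 CPM in the histone libraries. Both entered the members through their level in the histone control, and they were picked after their values were seen.

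CG14421 (X:2941408-2942329), the next of these genes, was instead high in the Set2 mutant, at 1090 to 2071 CPM against 20.3 to 86.1 CPM in yw. It varied from 0.467 to 333 CPM among the combined H3K36R libraries, with replicate 3 highest, and from 0.682 to 681 CPM in H4K16R, again with replicate 3 highest. It passed no test (adjusted p = 0.16 in the Set2 mutant, edgeR). The neuronal calcium sensor Frq1 (X:18155369-18174744) was lower in both genotypes with H3.3K36R, at 72.0 to 99.8 CPM in H3.3K36R alone and 70.9 to 88.6 CPM in combined H3K36R against 148 to 199 CPM in the histone control, but only the second passed (-1.19 ± 0.43, adjusted p = 0.036).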
